A study of Mus musculus with 6 samples.

Results

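The receptors of the interleukin 6 family were examined in mouse HoxB8 neutrophil progenitors, cells that the transcription factor Hoxb8 holds in an immature state. The members were taken by symbol: Il6ra, Il6st, Osmr, Lifr, Il11ra1 and Il27ra. Of these 6 genes, 5 had a probe set of that symbol among the 22206 of the array, 1 each, and Il11ra1 was not analysed here. The K313 group (3 arrays) expressed K313-C/EBPα, a mutant form of the transcription factor C/EBPα that the series title ties to acute myeloid leukaemia, and the WT group (3 arrays) expressed wild-type C/EBPα. Both were HoxB8 cells kept for 1 day in differentiation medium with 10% FCS and 1% SCF supernatant before total RNA was hybridised to Affymetrix Mouse Clariom S arrays. By its labels the comparison addresses the effect of the K313 mutation on what C/EBPα does. It does not isolate that effect, because the groups also differed in Hoxb8 and in Y-linked transcripts, as given below. The labels do not say whether the cells were clones or pools, which promoter drove C/EBPα, or whether the cells' own Cebpa was intact. Nothing says that replicates came from separate cultures, and the p-values then describe only the scatter among these arrays, which could be technical.

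Cytokines of this family bind a receptor chain of their own and recruit gp130, the product of Il6st, which the family shares. Il6ra encodes the chain that binds IL-6, and Osmr and Lifr encode signalling partners of gp130 for oncostatin M and leukaemia inhibitory factor. Il11ra1 encodes the chain for IL-11, and Il27ra encodes the partner of gp130 for IL-27. The assembled receptors activate Janus kinases bound to their cytoplasmic parts, chiefly JAK1, which phosphorylate the transcription factor STAT3. In myeloid cells IL-6 supports the formation of granulocytes and macrophages, and Il6ra is a known target of C/EBPα.

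The groups differed in more than the C/EBPα form. Over all probe sets, WT replicate 3 correlated with the K313 arrays at 0.987 to 0.989, while WT replicates 1 and 2 did so at 0.983 to 0.986. The Y-linked gene Eif2s3y read 12.37, 12.09 and 12.24 in K313 arrays and 3.11, 2.93 and 7.03 in WT arrays, so WT replicate 3 again stood nearest to K313. Hoxb8 averaged 8.34 in K313 and 12.98 in WT. Cebpa averaged 14.07 in K313 and 14.58 in WT (difference -0.51 ± 0.21, SE; limma adjusted p = 0.212). Whether either probe set sees an introduced copy is not stated. The parts of Hoxb8, of the Y-linked difference and of the C/EBPα form in the results cannot be told apart. Levels are log2 RMA values, and a mean of at most 5, near or under the array medians (5.01 to 5.13), cannot be told from background, since no detection calls were used. Levels of different probe sets are not set against each other.

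The chain that binds IL-6 and the shared chain gp130 were both higher in K313 cells, Il27ra was higher at a low level, and Osmr and Lifr lay near background in both groups. Of the 5 receptors measured, 3 rose (limma, Benjamini-Hochberg adjusted p under 0.05 over all probe sets), where 7.75% of all probe sets were called in either direction and 3.77% were called higher. The number that fell was 0 with limma, and also 0 at an unadjusted p under 0.05. At that unadjusted cut, 1953 of all 22206 probe sets were higher and 2007 lower, the background for the unadjusted counts given below. The median log2 change of the 5 receptors was 1.67, against 0.02 over all probe sets. K313 and WT values did not overlap in 4 of the 5, where 21.9% of all probe sets did not overlap.

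**Figure D1:**
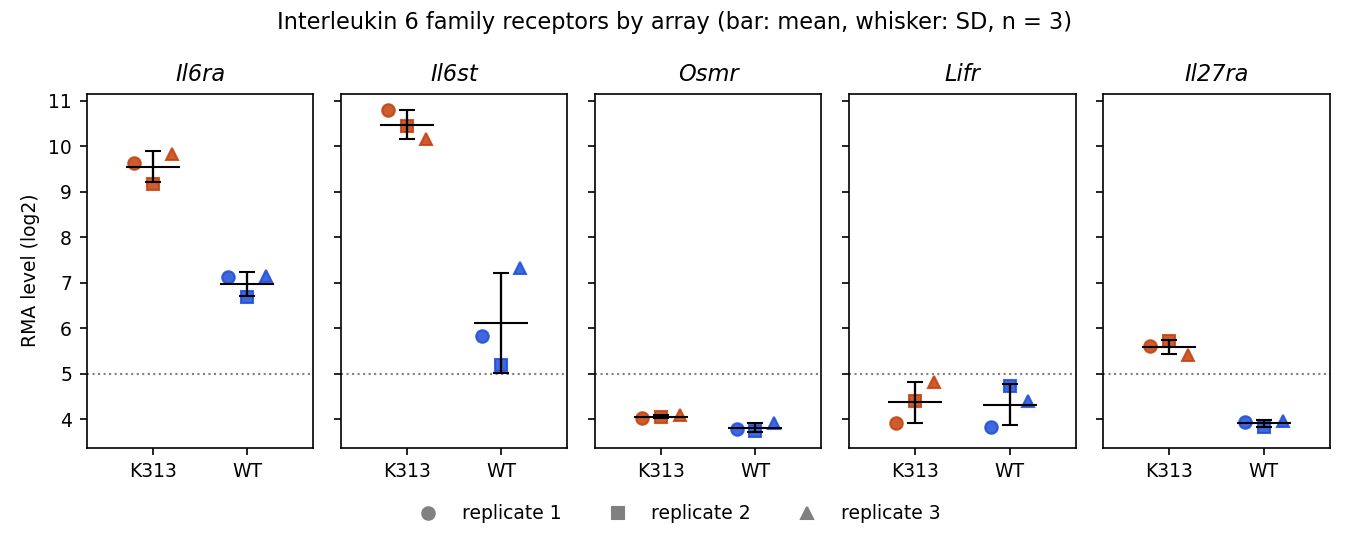
Log2 RMA level (y axis) of the 5 measured receptors in each K313 array (left, orange) and each WT array (right, blue); marker shapes give the replicate number, bars the mean, whiskers the SD (n = 3) and the dotted line the level of 5. Il6ra, Il6st and Il27ra are higher in all 3 K313 arrays than in any WT array, Osmr and Lifr lie under 5 in all 6 arrays, and WT replicate 3 is the highest WT array for Il6st.

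Il6ra, on chromosome 3, read 9.64, 9.18 and 9.84 in the K313 arrays and 7.12, 6.68 and 7.15 in the WT arrays. The groups lay far apart, and replicate 2 was the lowest array of each. The means were 9.55 ± 0.34 in K313 and 6.98 ± 0.26 in WT (SD, n = 3 each), a log2 change of 2.57 ± 0.21 (SE) or 5.94-fold (limma adjusted p = 1.27e-05). Over the 15 alternative settings the change lay between 2.42 and 2.76 and the call was kept in all 15; without WT replicate 3 it was 2.65.

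Il6st, on chromosome 13, read 10.81, 10.46 and 10.17 in the K313 arrays and 5.83, 5.20 and 7.33 in the WT arrays. All K313 arrays were above all WT arrays, and the WT arrays were spread more widely, with replicate 3 above the other two. The means were 10.48 ± 0.32 in K313 and 6.12 ± 1.09 in WT (SD, n = 3 each), a log2 change of 4.36 ± 0.42 (SE) or 20.5-fold (limma adjusted p = 5.11e-05). Without WT replicate 3 the change was 4.97, or 31.2-fold, which is 1.52 times the fold with all arrays (adjusted p = 1.76e-06). With ordinary variance per probe set, which borrows no information between genes, Il6st missed the threshold (adjusted p = 0.0785).

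Il27ra, on chromosome 8, read 5.62, 5.71 and 5.41 in the K313 arrays and 3.93, 3.82 and 3.97 in the WT arrays. The arrays of each group lay close together, with the WT arrays all under 5. The means were 5.58 ± 0.15 in K313 and 3.91 ± 0.08 in WT (SD, n = 3 each), a log2 change of 1.67 ± 0.16 (SE) or 3.19-fold (limma adjusted p = 3.65e-05). Because the WT level cannot be told from background, the size of this change is a compressed estimate. It lay between 1.60 and 1.76 over the 15 alternatives, all of which kept the call, and was 1.71 without WT replicate 3.

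Osmr and Lifr, which neighbour each other on chromosome 15, did not pass the threshold. Osmr read 4.03, 4.04 and 4.09 in the K313 arrays and 3.79, 3.74 and 3.92 in the WT arrays. Its groups did not overlap but differed little, by 0.24 ± 0.15 on the log2 scale (SE; limma adjusted p = 0.475; 95% interval -0.09 to 0.56 before adjustment). Lifr read 3.92, 4.39 and 4.82 in the K313 arrays and 3.83, 4.72 and 4.41 in the WT arrays. Its groups overlapped, with a difference of 0.06 ± 0.27 (SE; limma adjusted p = 0.953; 95% interval -0.53 to 0.64). At these levels a change of either transcript would be hard to see.

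The sequences just before the starts of Il6ra and Il6st, the chains that together form the IL-6 receptor, are shown because both genes rose and C/EBPα is known to act on Il6ra. They are the 250 bases before the RefSeq gene start in GRCm38.p6, chr3:89913197-89913446 on the minus strand for Il6ra and chr13:112463820-112464069 on the plus strand for Il6st, written 5′ to 3′ along the gene. RefSeq promoters were found for 5 of the 6 listed receptors, and Il27ra had no entry. Capitals mark TTGCG, taken as a C/EBP half-site after the sequences were seen.
Il6ra: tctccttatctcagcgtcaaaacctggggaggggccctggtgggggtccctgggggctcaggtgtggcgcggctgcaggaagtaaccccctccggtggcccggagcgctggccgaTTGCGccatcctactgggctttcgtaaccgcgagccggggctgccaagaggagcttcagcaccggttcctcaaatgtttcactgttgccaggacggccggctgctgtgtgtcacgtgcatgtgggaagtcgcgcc
Il6st: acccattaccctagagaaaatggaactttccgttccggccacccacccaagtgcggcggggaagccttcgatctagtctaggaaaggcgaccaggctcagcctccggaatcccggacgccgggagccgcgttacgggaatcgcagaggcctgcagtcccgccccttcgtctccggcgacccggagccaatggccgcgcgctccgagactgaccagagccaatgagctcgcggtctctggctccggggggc

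Both strands were searched for TTGCG, for the fuller C/EBP motif TTGCNNAA and for the STAT motif TTCNNNGAA; the C/EBP motifs share their first letters and can overlap. The half-site was added after the sequences were seen. Il6ra held TTGCG once, 135 to 131 bases before the start on the gene's own strand, and neither of the other motifs. Il6st, Osmr, Lifr and Il11ra1 held none of the 3 before any listed start, with both starts counted for Lifr and for Il11ra1. TTGCG was thus found in 1 of 5 receptors. This count carries no weight, since TTGCG was picked with the sequences in view. The shorter TTGC, with which TTGCNNAA also begins, can be read in windows of Osmr, Lifr and Il11ra1 too. Il31ra, the IL-31 receptor chain, held the STAT motif once and neither C/EBP motif. For Osmr, Lifr, Il31ra and start 2 of Il11ra1, the listed start was not the RefSeq gene start. Among all 32851 RefSeq promoters, cut to the same 250 bases, 14.5% held TTGCG, 9.56% held TTGCNNAA and 7.02% held TTCNNNGAA. A match is a run of letters, not a measured binding site.

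The ligands went the other way or did not pass the threshold. Of 13 ligand genes measured out of 14 listed, 0 rose and 2 fell with limma (0 and 2 also at an unadjusted p under 0.05), with a median log2 change of -0.17. Il6, the ligand of the Il6ra chain, read 11.17, 10.68 and 10.91 in the K313 arrays and 13.21, 13.25 and 13.18 in the WT arrays. Every K313 array was thus below every WT array, and Il6 fell by 2.29 ± 0.17 on the log2 scale (SE; limma adjusted p = 6.48e-06). Ebi3, which pairs with other subunits to form IL-27 and IL-35, read 10.23, 9.29 and 10.18 in the K313 arrays and 12.38, 12.70 and 12.34 in the WT arrays. It fell by 2.57 ± 0.24 (limma adjusted p = 4.27e-05), again with no overlap. Il6 and its receptor chains thus moved in opposite directions, as did Ebi3 and Il27ra.

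The remaining ligands gave smaller differences. Il27, the other subunit of IL-27, averaged 4.30 in K313 and 3.93 in WT, near background in both groups (difference 0.37 ± 0.18, SE; limma adjusted p = 0.326). Osm, the ligand of the Osmr chain, averaged 6.98 in K313 and 7.38 in WT (-0.40 ± 0.28; adjusted p = 0.542). Lif differed by 0.07 ± 0.24 (adjusted p = 0.936) and Il11 by 0.32 ± 0.17 (adjusted p = 0.369), both near background in both groups. In all, 8 of the 13 ligand genes had means of at most 5 in both groups.

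Among related receptors of the same structural class, 1 of 10 measured genes rose and 3 fell, with a median log2 change of -0.01. Il31ra, which joins the Osmr product to form the receptor for IL-31 and does not use gp130, read 6.01, 5.52 and 6.01 in the K313 arrays and 3.51, 3.30 and 3.61 in the WT arrays. The groups were apart, with a log2 change of 2.37 ± 0.18 (SE; limma adjusted p = 8.98e-06) from a WT level near background. Il31ra is also the next measured gene to Il6st on chromosome 13 in the RefSeq order. Ankrd55, the next on the other side, averaged 2.85 in K313 and 2.79 in WT (adjusted p = 0.895). The measured neighbours of Il6ra, She and Atp8b2, differed by 0.16 and 0.06 (adjusted p = 0.677 and 0.960), and those of Il27ra, Palm3 and Rln3, by -0.19 and 0.15 (adjusted p = 0.710 and 0.719).

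The related receptors that fell were Il12rb2, Csf3r and Csf2rb. Il12rb2, a signalling chain of the IL-12 receptor, read 7.77, 7.61 and 7.28 in the K313 arrays and 9.26, 9.97 and 9.27 in the WT arrays, a change of -1.95 ± 0.22 (SE; limma adjusted p = 0.000160). Csf3r, the receptor for the granulocyte growth factor G-CSF and also a C/EBPα target, read 9.84, 9.50 and 9.67 in the K313 arrays and 10.29, 11.14 and 10.67 in the WT arrays. Each of these receptors was lower in all K313 arrays, Csf3r by less (-1.03 ± 0.22; limma adjusted p = 0.0120). Csf2rb, the chain shared by the receptors for IL-3, IL-5 and GM-CSF, changed by -0.99 ± 0.26 (adjusted p = 0.0412). With ordinary variance, Il12rb2 missed the threshold (adjusted p = 0.0698). Csf3r missed it with ordinary variance (adjusted p = 0.199) and without K313 replicate 2 (adjusted p = 0.0613). Csf2rb missed it in 7 of the 15 alternatives, among them 5 of the 6 that leave out 1 array and change nothing else.

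**Figure D2:**
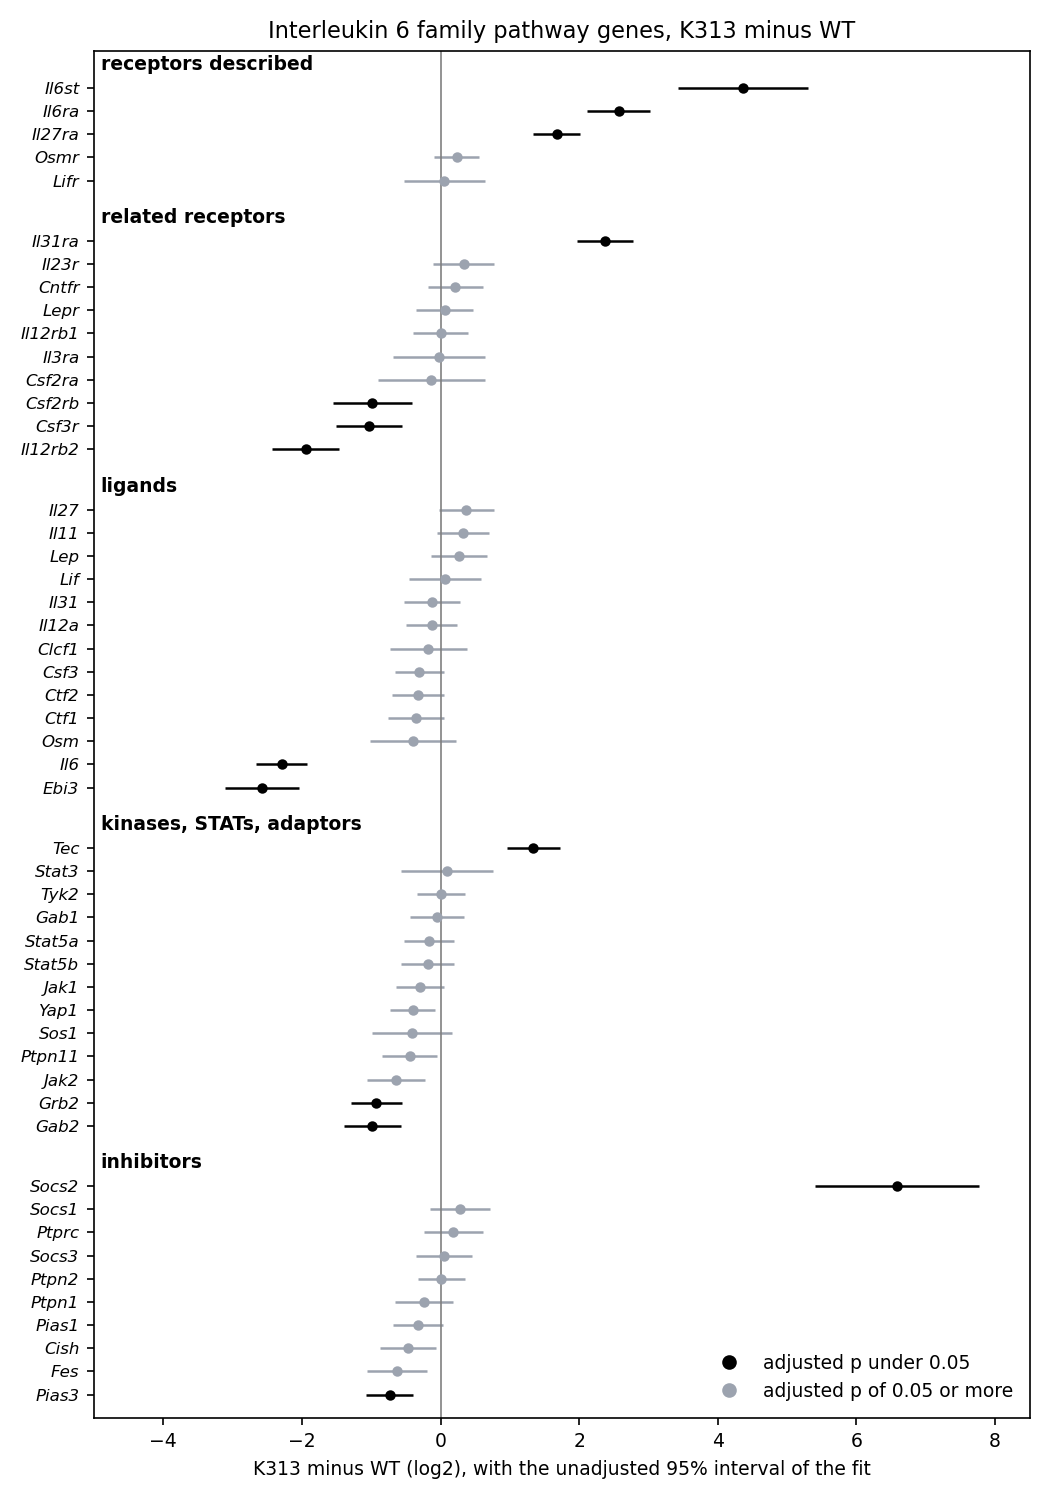
Log2 change, K313 minus WT (x axis), of the 5 measured receptors and of the measured genes of 4 lists; bars are the 95% interval of the limma fit before adjustment (n = 3 per group), black points passed the threshold and grey points did not. Il6st, Il6ra, Il27ra and Il31ra lie to the right of 0, Il6 and Ebi3 to the left, and Socs2 has the highest value of the genes shown.

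Downstream of gp130, most signalling genes did not pass the threshold. Of 13 measured kinases, STATs and adaptors, 1 rose and 2 fell with limma, with a median log2 change of -0.30. At an unadjusted p under 0.05, 1 rose and 5 fell: Grb2, Gab2, Jak2, Ptpn11 and Yap1, the last near background. The kinase Jak2 missed the threshold (-0.64 ± 0.19, SE, limma adjusted p = 0.0678), with every K313 array below every WT array. Jak1, the main kinase of gp130, averaged 10.56 in K313 and 10.85 in WT (-0.30 ± 0.16, SE; limma adjusted p = 0.375). Stat3 read 12.47, 11.90 and 12.31 in the K313 arrays and 11.34, 12.44 and 12.62 in the WT arrays, which overlapped (0.09 ± 0.30; adjusted p = 0.930; 95% interval -0.57 to 0.76). The tyrosine kinase Tec rose by 1.34 ± 0.17 (adjusted p = 0.000401). The adaptors Grb2 and Gab2, which link such receptors to the Ras and MAP kinase route, fell by 0.93 ± 0.17 (adjusted p = 0.00482) and fell by 0.99 ± 0.19 (adjusted p = 0.00645).

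Inhibitors of the pathway numbered 10, of which 1 rose and 1 fell with limma (1 and 3 at an unadjusted p under 0.05). Socs3, the inhibitor that binds gp130 itself and is induced by STAT3, averaged 3.43 in K313 and 3.38 in WT, near background in both groups (0.05 ± 0.19, SE; limma adjusted p = 0.935). Socs2, an inhibitor best known from growth hormone and STAT5 signalling, read 12.84, 13.07 and 12.94 in the K313 arrays and 5.11, 6.0 and 7.98 in the WT arrays. WT replicate 3 was the highest WT array here too, and the change was 6.59 ± 0.54 (adjusted p = 1.36e-05) with all arrays and 7.40 without that one. Pias3, an inhibitor of DNA binding by STAT3, fell by 0.73 ± 0.15 (adjusted p = 0.0123).

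Proteases can cut the Il6ra product from the cell surface and so release a soluble receptor. Of 7 measured genes of shedding, which comprise such proteases and the ADAM17 cofactors Rhbdf1, Rhbdf2 and Frmd8, 1 rose and 0 fell with limma (1 and 1 at an unadjusted p under 0.05, the fall being Frmd8 at -0.73 ± 0.21). Adam17, the main sheddase, averaged 13.95 in K313 and 13.71 in WT (0.24 ± 0.24, SE; limma adjusted p = 0.708), and Adam10 averaged 14.24 in K313 and 13.90 in WT (0.35 ± 0.20; adjusted p = 0.439). Ctsg, the granule protease cathepsin G, which can also cleave this receptor, read 17.00, 16.94 and 16.76 in the K313 arrays and 15.30, 14.96 and 15.18 in the WT arrays. It rose by 1.75 ± 0.16 (adjusted p = 3.45e-05).

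Textbook targets of STAT3 went both ways, 4 of 23 measured genes higher, 2 lower and 17 short of the threshold (median log2 change 0.16). At an unadjusted p under 0.05, 7 were higher and 2 lower. The rises past the threshold were haptoglobin, Hp (2.69 ± 0.18), the siderophore-binding protein Lcn2 (2.09 ± 0.23), the interleukin 1 receptor antagonist Il1rn (1.58 ± 0.21, from a WT level near background) and the kinase Pim1 (0.82 ± 0.16). The falls were Fgl2 (-2.92 ± 0.22) and Il4ra, the IL-4 receptor chain (-0.69 ± 0.15). Limma adjusted p-values of these 6 lay between 3.91e-06 (Hp) and 0.0153 (Il4ra). Il4ra missed the threshold without K313 replicate 1, without K313 replicate 2 and without WT replicate 3. Hp and Lcn2 are also targets of C/EBPα.

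Beside Il6ra, 18 known C/EBPα targets were listed with earlier results of these data known, and a C/EBPα cause was not tested. Of these 18 genes, 9 rose and 1, Csf3r, fell with limma (9 and 2 at an unadjusted p under 0.05). Their median log2 change was 0.68. Over all probe sets, 3.77% were called higher and 3.97% lower. The called targets with the smallest p were Hp, neutrophil elastase Elane (3.29 ± 0.28), Ctsg, the transcription factor Klf5 (2.08 ± 0.20, from a WT level near background), the glutathione transferase Mgst1 (7.63 ± 0.75) and Lcn2. Mgst1 changed by 8.82 without WT replicate 3. Cebpe and Gfi1, transcription factors of granulocyte formation, differed by -0.04 ± 0.16 (limma adjusted p = 0.939) and 0.36 ± 0.20 (0.410).

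The genes whose profile over the 6 arrays was closest to each receptor that rose were found by the Euclidean distance between log2 values, each centred on its own mean, among 17135 probe sets. For Il6ra they were Hp (distance 0.27), Il31ra (0.33) and Bscl2, the seipin of lipid droplets (0.33), and in these genes too K313 replicate 2 was the lowest K313 array. For Il6st they were the membrane protein Ms4a6c (0.53), the paraoxonase Pon3 (0.65) and the chemokine Ccl6 (0.66). Ms4a6c read 12.36, 11.97 and 11.70 in the K313 arrays and 7.64, 6.97 and 8.47 in the WT arrays, with WT replicate 3 highest of its group as in Il6st. For Il27ra they were Ctsg (0.22), the carbonic anhydrase Car12 (0.27) and the glutathione transferase Gstm1 (0.29). The distance rests mainly on the step between the groups. A shared order of arrays within a group follows in part from choosing the closest genes.

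**Figure D3:**
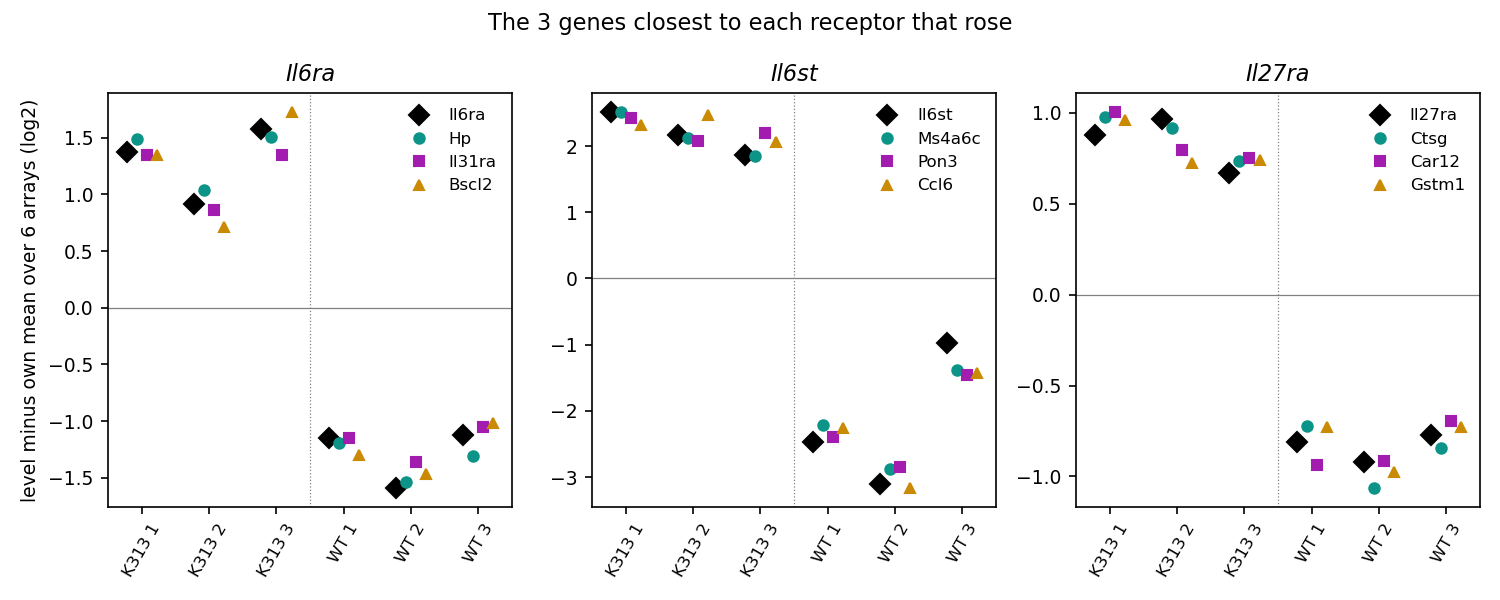
Log2 level minus the gene's own mean over the 6 arrays (y axis) in each K313 and WT array (x axis) for Il6ra, Il6st and Il27ra (black diamonds) and the 3 genes closest to each. In the middle panel WT replicate 3 lies above the other WT arrays for Il6st and its 3 closest genes. In the left panel K313 replicate 2 is the lowest K313 array for Il6ra and its 3 closest genes. Such likeness follows in part from the choice of genes by distance over these arrays.

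Markers of several blood cell types also differed between the groups, in both directions. In bulk RNA, fewer cells of a type and less RNA per cell cannot be told apart. Neutrophil progenitor markers were present, with Mpo, Elane and Ctsg far above background in both groups, and 4 of 9 were higher and 0 lower in K313 with limma (4 and 0 at an unadjusted p under 0.05). Their summed level (unlogged values added, then log2) was 19.23 to 19.28 in K313 and 18.76 to 18.85 in WT. Such a sum rests mainly on the highest probe sets of its list, here Mpo (mean 18.42 in K313 and 18.41 in WT), and need not reflect the other markers. The late granule genes Ltf and Camp were near background in both groups. Of 8 monocyte and macrophage markers, 4 were higher (Cd14, Ms4a6c, Ly6c2 and Ccr2) and 2 lower (Cx3cr1 and Adgre1), with a summed level of 13.54 to 14.30 in K313 and 11.99 to 12.19 in WT. Of 9 basophil and mast cell markers, 1 was higher (Prss34, 3.98 ± 0.21) and 4 lower (Cd200r3, -4.03 ± 0.23, Mcpt8, -1.63 ± 0.22, Gata2 and Hdc). These markers thus disagreed. Their summed level, mainly of Cpa3 and Hdc, was 17.64 to 17.89 in K313 and 18.33 to 18.44 in WT. Of 4 eosinophil markers 3 were lower (14.19 to 14.73 in K313, 15.56 to 16.23 in WT). Their part in the receptor changes was not tested.

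Erythroid and megakaryocyte markers were lower in 3 of 5 (8.61 to 8.98 in K313, 11.35 to 11.55 in WT), and T, B and NK cell markers were higher in 1 and lower in 3 of 6 (7.27 to 7.76 in K313, 9.41 to 10.12 in WT). In WT the latter sum rested mainly on Cd79b (mean 9.52, and 5.59 in K313), while Cd3e and Ncr1 were near background in both groups. Osmr and Lifr are best known from stromal, endothelial and liver cells. The fibroblast genes Col1a1, Col1a2, Col3a1, Dcn and Lum were near background in both groups, and of all 7 stromal markers Pdgfrb and Thy1 were lower (9.85 to 10.02 in K313, 10.63 to 11.75 in WT). The endothelial genes Cdh5, Kdr, Tek and Emcn were near background in both groups, and Pecam1, which myeloid cells also express, was higher (1 of 5; 12.94 to 13.37 in K313, 9.94 to 11.00 in WT). Of 4 hepatocyte genes, 0 changed with limma and 0 at an unadjusted p under 0.05 (6.40 to 6.46 in K313, 6.29 to 6.40 in WT).

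**Figure D4:**
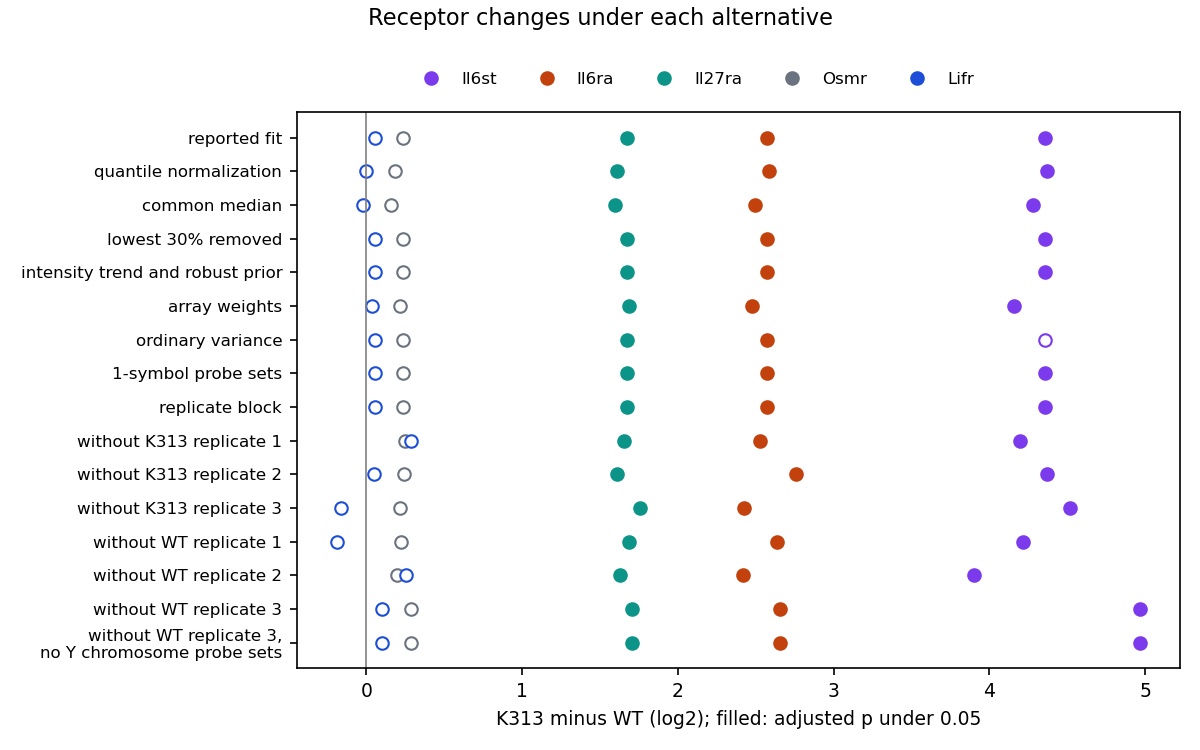
Log2 change, K313 minus WT (x axis), of the 5 measured receptors in the reported fit and under 15 alternatives (rows); filled points passed the threshold and open points did not. Il6ra and Il27ra are filled in every row, Il6st is open with ordinary variance, and Osmr and Lifr are open in every row.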

How the data were processed

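Total RNA of 6 samples, 3 K313 and 3 WT, was measured on arrays. The deposited values are log2 expression values with 2 decimals, made by the authors with RMA and the Transcriptome Analysis Console, per the submitters' processing notes; versions and the build of the array design are not given in the sources used here. RMA equalises the arrays' distributions, which hides differences in RNA content per cell, and it compresses folds near the low end. Symbols came from the platform annotation, in which 19572 probe sets have 1 symbol. All 22206 probe sets were fitted with limma 3.58.1 in R 4.3.3 (lmFit on group alone, then eBayes). The test was two-sided, p-values were adjusted over the whole table by Benjamini-Hochberg, the threshold was 0.05, and the script was checked on simulated data. Changes are K313 minus WT with the standard error of the fit, and 3 arrays per group limit the precision.

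The members, the gene lists and the marker lists were chosen with earlier results of these data known. Outside the members, the named genes are up to 6 called genes of each list by smallest p, 10 pathway genes given whatever their result, the 3 genes closest to each called receptor, and the measured neighbours of each receptor. Names in counts of 5 or fewer, Cebpe, Gfi1, Il27, and the check and marker genes were added after their values were seen. RefSeq sequences are of GRCm38.p6. The alternatives were other normalizations, a filter on the lowest 30% of probe sets, other variance models, 1-symbol probe sets, a replicate block, and leaving out arrays.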

Additional observations from a re-analysis of the deposited data

How the results depend on the processing

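The number of receptors past the threshold was 3 in 14 of 15 alternatives. The exception was ordinary variance per probe set, which shares no information between probe sets. There Il6st, with an unchanged difference of 4.36, missed the threshold (adjusted p = 0.0785), leaving 2 receptors. The count over all probe sets was 496 in place of 1720, and 8 in place of 24 pathway genes passed. Those 8 were Il6, Il31ra, Tec, Ctsg, Hp, Klf5, Fgl2 and Il4ra. The other called pathway genes, among them Ebi3, Il12rb2, Socs2, Pias3, Grb2, Gab2, Elane and Lcn2, missed it. When single arrays were left out, the change lay between 3.90 and 4.97 for Il6st, 2.42 and 2.76 for Il6ra, 1.61 and 1.76 for Il27ra, 0.20 and 0.29 for Osmr, and -0.19 and 0.29 for Lifr. Lifr, never called, had a difference of -0.02 with a common median and of -0.00167 with quantile normalization. The titles share replicate numbers, but the deviations of same-numbered arrays from their group means correlated at -0.06, 0.03 and -0.06, so the numbers were not taken to pair the arrays. With the replicate block the count over all probe sets was 1546 and the adjusted p was 1.75e-05 for Il6ra, 0.000125 for Il6st and 0.000298 for Il27ra; it changed no receptor call. Removing the lowest 30% of probe sets left Il11 and Socs3 out. Levels near background limit what can be seen of Osmr and Lifr and the size of the Il27ra and Il31ra changes.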
